A study of Mus musculus with 6 samples.

Results

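The cytochrome P450 family 4 genes described here are 10 hydroxylases of mouse liver. They are the Cyp4a genes Cyp4a10, Cyp4a14, Cyp4a12a, Cyp4a12b, Cyp4a31 and Cyp4a32, the Cyp4f genes Cyp4f13, Cyp4f14 and Cyp4f15, and Cyp4v3. They were taken by name, and all 10 were found among the 48432 genes listed. The RNA came from hepatocytes of FVB mice in 3 groups of 2 samples. The DDC fed samples came from adults kept for 4 weeks on a diet with DDC, a compound that blocks heme synthesis and causes liver and bile duct injury. The E18 samples came from embryonic day 18 livers, each a pool of about 8 embryos, and the normal fed samples came from adults on normal chow. No genotype beyond the strain is given, and neither the sex of the mice nor the age of the adults is given in the sources used here. Whether the 2 adult samples of a group are separate animals is not stated, so p-values measure only the spread between these samples.

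Family 4 enzymes sit in the endoplasmic reticulum and oxidise the far end of fatty acid chains (omega-hydroxylation), with electrons passed on by P450 reductase and cytochrome b5. The hydroxylated acids are turned into dicarboxylic acids and shortened in peroxisomes, or, for arachidonic acid, act as the lipid mediator 20-HETE. In mouse liver Cyp4a10 and Cyp4a14 are textbook targets of the fatty acid receptor PPARA. Cyp4a12a and Cyp4a12b are known as male-predominant genes under androgen and growth hormone control, and Cyp4f enzymes also hydroxylate leukotriene B4.

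On GRCm38 the Cyp4a members lie within 322.6 kb of chromosome 4, in the order Cyp4a12a, Cyp4a12b, Cyp4a14, Cyp4a10, Cyp4a31 and Cyp4a32. Cyp4a12a (ENSMUSG00000066071.6) spans 115299046 to 115332815, Cyp4a14 (ENSMUSG00000028715.2) 115486200 to 115496142, Cyp4a10 (ENSMUSG00000066072.13) 115518264 to 115533649 and Cyp4a32 (ENSMUSG00000063929.6) 115600969 to 115621602. The Cyp4f members lie within 261.8 kb of chromosome 17, in the order Cyp4f15, Cyp4f14 and Cyp4f13, where Cyp4f14 (ENSMUSG00000024292.14) spans 32905070 to 32917342. Cyp4v3 (ENSMUSG00000079057.4) lies on chromosome 8 from 45304944 to 45333216. All are protein-coding genes.

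Some Cyp4a members are near copies of each other, which limits how far reads can be given to a single gene. The coding sequences of Cyp4a12a and Cyp4a12b were 98.5% identical, and those of Cyp4a10 and Cyp4a32 97.2% identical. Of all runs of 50 bases in the annotated transcript, 48.9% of Cyp4a12a, 49.5% of Cyp4a12b, 46.8% of Cyp4a32, 30.5% of Cyp4a10 and 21.8% of Cyp4a31 also occur in a transcript of another gene. For Cyp4a14 the share was 0.245%, and for Cyp4f13, Cyp4f14 and Cyp4f15 it was 2.70%, 2.72% and 2.45%. The last 60 coding bases (GENCODE M21 transcripts, 5′ to 3′) show the problem, with capitals at bases that differ from Cyp4a12a at the same distance from the end:
Cyp4a12a: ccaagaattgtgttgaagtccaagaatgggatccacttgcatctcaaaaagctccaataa
Cyp4a12b: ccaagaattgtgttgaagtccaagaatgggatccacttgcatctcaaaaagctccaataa
Cyp4a14: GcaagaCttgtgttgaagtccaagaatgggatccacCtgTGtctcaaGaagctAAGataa
Cyp4a32: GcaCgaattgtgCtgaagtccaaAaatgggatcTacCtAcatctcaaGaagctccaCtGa
Cyp4a10: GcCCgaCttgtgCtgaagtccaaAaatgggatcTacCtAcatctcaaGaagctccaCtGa
Cyp4a31: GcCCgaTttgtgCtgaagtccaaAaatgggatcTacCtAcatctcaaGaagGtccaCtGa
In this stretch 0 bases of Cyp4a12b, 9 of Cyp4a14, 10 of Cyp4a32, 12 of Cyp4a10 and 13 of Cyp4a31 differ from Cyp4a12a. How the authors assigned reads that fit more than 1 gene is not given in the sources used here, so values of Cyp4a12a against Cyp4a12b, and of Cyp4a10, Cyp4a31 and Cyp4a32, are uncertain as to the single gene. Cyp4v3 also overlaps the gene Gm45753 on the same strand, and 7.02% of its runs of 50 bases occur there too. Gm45753 was listed at 22.0 and 11.5 TPM at E18, where Cyp4v3 was at 15.9 and 13.1 TPM. With DDC it was at 4.89 and 6.82 TPM, and in normal fed samples at 10.7 and 0.0517 TPM. The part of shared reads in the Cyp4v3 values was not tested.

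Promoter sequence was at hand for 5 members, Cyp4a32, Cyp4f13, Cyp4f14, Cyp4f15 and Cyp4v3. The 120 bases before their start sites (RefSeq, GRCm38.p6, 5′ to 3′ on the strand of the gene) are shown with matches to CCAAT in capitals, read here on the opposite strand:
Cyp4f14, chr17:32917343-32917462, minus strand: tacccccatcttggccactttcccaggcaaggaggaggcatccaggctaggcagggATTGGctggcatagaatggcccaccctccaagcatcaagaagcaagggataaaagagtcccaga
Cyp4f15, chr17:32685539-32685658, plus strand: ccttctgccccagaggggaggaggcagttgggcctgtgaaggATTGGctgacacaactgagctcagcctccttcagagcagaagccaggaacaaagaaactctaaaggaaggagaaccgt
Cyp4f13, chr17:32947362-32947481, minus strand: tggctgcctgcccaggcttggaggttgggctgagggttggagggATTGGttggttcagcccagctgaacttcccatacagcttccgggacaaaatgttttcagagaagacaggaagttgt
Cyp4a32, chr4:115600818-115600937, plus strand: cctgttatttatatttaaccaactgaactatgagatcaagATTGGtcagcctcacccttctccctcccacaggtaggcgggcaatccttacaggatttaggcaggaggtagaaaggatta
Cyp4v3, chr8:45333164-45333283, minus strand: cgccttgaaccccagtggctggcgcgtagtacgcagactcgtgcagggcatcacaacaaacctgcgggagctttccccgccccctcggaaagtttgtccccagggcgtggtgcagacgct
CCAAT, searched on both strands, occurred in 4 of these 5 windows, against 21.8% of 27025 genes with a window of that length. It also occurred in 3 of 8 windows of other Cyp4 genes, Cyp4f16, Cyp4f18 and Cyp4f37. Any link of CCAAT with the levels of these genes was not tested. The match began 64 bases before the start site of Cyp4f14, 76 before that of Cyp4f13, 78 before that of Cyp4f15 and 80 before that of Cyp4a32. The element that PPARA binds, searched as AGGTCA repeated after any 1 base on both strands, occurred in 0 of the 5 within 250 bases, and in 0.0407% of all genes at that length. Within the 120 bases TATAAA occurred in the window of Cyp4a32 alone, against 6.79% of all genes, and AGGTCA in none of the 5, against 6.93%. Cyp4f13, Cyp4f14 and Cyp4f15 are related copies, with coding sequences 74.3% to 80.0% identical, so their windows are not separate cases. The search for the PPARA element was planned, and CCAAT and TATAAA were added to it. These matches describe letters and not binding.

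Values are in TPM, a transcript's share per length scaled to 1000000 in each sample, and fold changes are differences of log2(TPM + 1) ± SE from a limma fit to all 6 samples. The adjusted p covers the 14307 genes that reached 1 TPM in 2 or more samples, and the threshold was 0.05. The samples of a group are called 0 and 1, as in the deposited table, which gives no counts, so depth is unknown. Genes at 1 TPM or more numbered 12204 and 12322 in the DDC fed samples, 13983 and 13748 in the E18 samples, and 10792 and 10401 in the normal fed samples. The normal fed samples stood further apart than the others, with a median absolute log2 difference of 0.37 between them, against 0.125 for DDC fed and 0.17 for E18. Over the members the median of normal fed sample 1 minus sample 0 was -0.82, against -0.16 over the 6035 genes tested with exon lengths in the same range, and sample 0 was the higher for 7 of the 10. Sample 0 was also the higher for 9 of the 10 members in the DDC fed group and for 10 of 10 in the E18 group. Over all genes tested the median log2 difference of sample 1 minus sample 0 was 0.022 for DDC fed and 0.0088 for E18. Most genes tested were higher in DDC fed and E18 than in normal fed samples. Their median log2 fold change was 0.45 for DDC fed minus normal fed, 1.06 for E18 minus normal fed and -0.55 for DDC fed minus E18. With median-ratio scaling, which centres these shifts, 2933 genes were higher and 1663 lower with DDC in place of 4896 and 439, and 5434 higher and 4553 lower at E18 in place of 9020 and 1815. For DDC fed minus E18, 3985 were higher and 4877 lower in place of 2532 and 6723. The hepatocyte label was checked on 14 markers, whose summed level was 26384 and 24590 TPM in DDC fed, 18717 and 11732 TPM in E18 and 38256 and 26944 TPM in normal fed samples. In each group 2 of the 14 were listed at 0, among them hemopexin (Hpx) in DDC fed, fibrinogen chains Fga and Fgb in E18 and Serpina1a in normal fed samples, so an exact 0 in this table can be a failed estimate. None of the 10 Cyp4 genes was listed at 0 in any sample.

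All 10 members passed the filter on low values. Cyp4a14 and Cyp4a31 passed only through the E18 samples, in which they were highest, so their difference at E18 is in part set by the filter. The levels spread widely. In normal fed samples Cyp4v3, Cyp4a12a and Cyp4f14 were at the top with means of 381, 259 and 238 TPM, followed by Cyp4f15 at 102 TPM and Cyp4f13 at 94.7 TPM. The first 3 overlapped with each other in their samples, as did Cyp4f15 and Cyp4f13. Cyp4a32, whose annotated transcript holds no UTR, at 28.4 TPM, Cyp4a12b at 10.8 TPM and Cyp4a10 at 4.55 TPM came next, and Cyp4a14 and Cyp4a31 were at 0.506 and 0.240 TPM. Cyp4v3 and Cyp4f14 stayed at the top with DDC, with means of 247 and 209 TPM. At E18 the order was another one, with Cyp4a12a at 52.1 TPM, Cyp4f13 at 30.3 TPM, Cyp4a10 at 26.1 TPM and Cyp4a14 at 25.9 TPM as the highest, and Cyp4f14 at 0.399 TPM as the lowest.

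**Figure D1:**
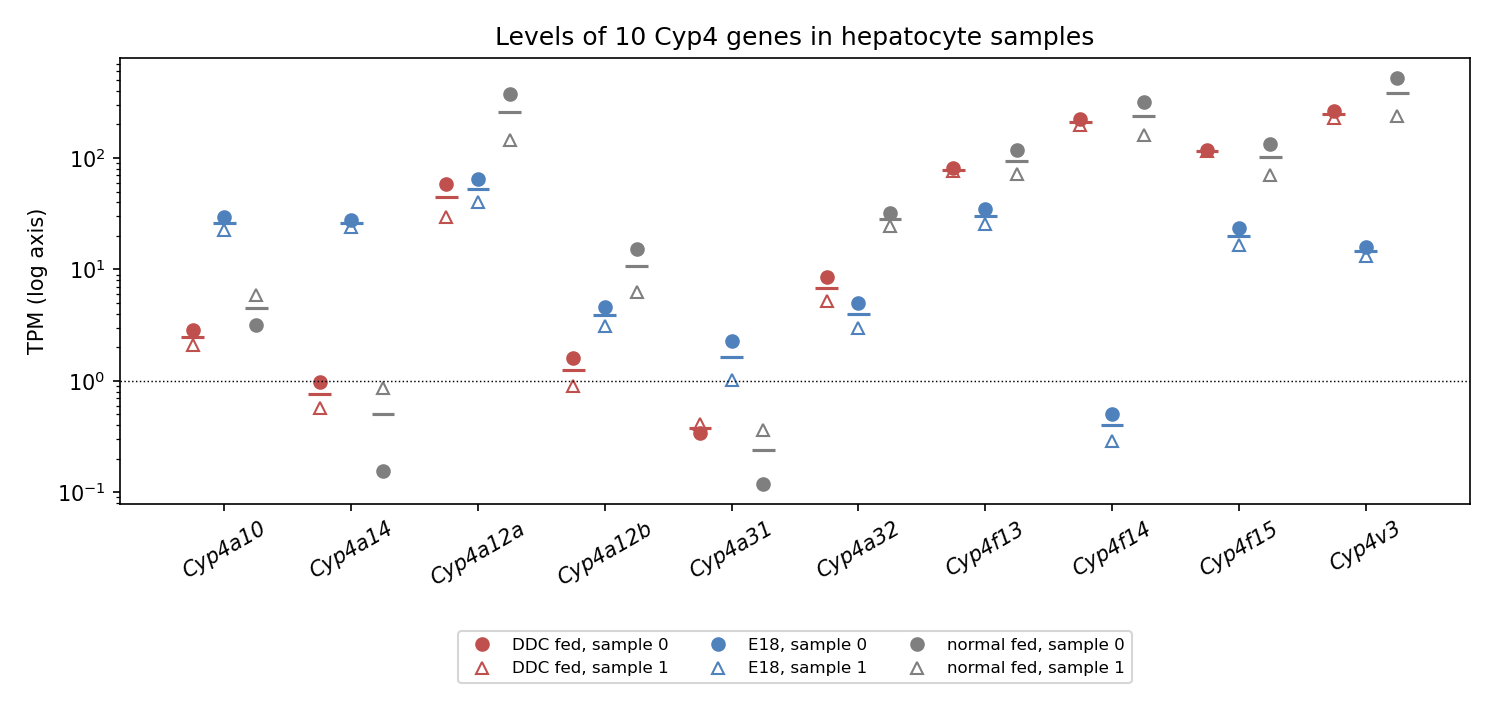
TPM on a log axis for the 10 Cyp4 genes in DDC fed, E18 and normal fed samples. Filled circles are sample 0, open triangles sample 1 and bars the mean of 2, and the dotted line marks 1 TPM. Cyp4a10, Cyp4a14 and Cyp4a31 were highest at E18, where Cyp4f14 lay under 1 TPM.

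The comparison of DDC fed with normal fed adults asks which hydroxylases differ after 4 weeks of DDC. Of the 10 members 3 fell, all of them Cyp4a genes, and 7 did not pass. Of all genes tested 3.07% fell, 34.2% rose and 37.3% passed in either direction. No member rose (limma), also at an unadjusted p under 0.05, where 0 were higher and 3 lower. For 4 members the samples did not overlap, all lower with DDC, against 8.99% of genes tested wholly lower and 62.4% wholly higher. The median log2 fold change of the members was -0.38.

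Cyp4a12a, which makes 20-HETE from arachidonic acid, was at 58.8 and 29.7 TPM in DDC fed samples, against 374 and 145 TPM in normal fed samples. Both DDC fed samples lay below both normal fed ones, although the normal fed samples themselves differed widely. It fell by 2.45 ± 0.52 on the log2 scale (adjusted p = 0.0114), a ratio of means of 0.171. It missed the threshold when DDC fed sample 1 was left out (-1.97, adjusted p = 0.0776), when E18 sample 0 or 1 was left out (adjusted p = 0.0644 and 0.0642), with no filter on low values (adjusted p = 0.0597) and with only the compared groups in the fit (adjusted p = 0.0547). Its near copy Cyp4a12b was at 1.60 and 0.901 TPM with DDC and at 15.3 and 6.26 TPM in normal fed samples (-2.29 ± 0.40, adjusted p = 0.00499). The groups did not overlap here either, but reads can be shared with Cyp4a12a, so the 2 genes are not separate cases. The sum of Cyp4a12a and Cyp4a12b, which does not depend on how reads were split between them, was 60.4 and 30.6 TPM in DDC fed and 389 and 151 TPM in normal fed samples. Cyp4a12b made up 2.18% and 2.32% of the Cyp4a total with DDC and 3.60% and 3.42% in normal fed samples.

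Cyp4a32, a close relative of Cyp4a10, was at 8.58 and 5.16 TPM in DDC fed samples, against 32.3 and 24.5 TPM in normal fed samples. The normal fed samples lay well above both DDC fed ones (-1.92 ± 0.32, adjusted p = 0.00412). Cyp4a10, an inducible PPARA target, was at 2.84 and 2.11 TPM with DDC and 3.19 and 5.91 TPM in normal fed samples, and did not pass (-0.64 ± 0.30, adjusted p = 0.14). Its samples did not overlap. It passed as lower when normal fed sample 0 was left out (-1.0, adjusted p = 0.0152), with quantile normalization (-1.42, adjusted p = 0.0222) and with the exon-length correction (-1.07, adjusted p = 0.0349), and was at -0.28 without normal fed sample 1. The sum of Cyp4a10, Cyp4a31 and Cyp4a32 was 11.8 and 7.69 TPM with DDC and 35.7 and 30.8 TPM in normal fed samples. Cyp4a14, the other inducible PPARA target, was at 0.970 and 0.566 TPM with DDC and 0.156 and 0.855 TPM in normal fed samples, and Cyp4a31 was at 0.338 and 0.414 TPM with DDC and at 0.120 and 0.361 TPM in normal fed samples. Both were under 1 TPM in all adult samples and overlapped between the groups (adjusted p = 0.469 and 0.625).

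The Cyp4f members and Cyp4v3 overlapped between DDC fed and normal fed samples. Cyp4f14, the mouse enzyme known for hydroxylating leukotriene B4 and the side chain of vitamin E, was at 222 and 196 TPM with DDC and at 316 and 160 TPM in normal fed samples (-0.11 ± 0.33, adjusted p = 0.826). Cyp4f15 was at 117 and 116 TPM with DDC and at 134 and 69.7 TPM in normal fed samples (0.27 ± 0.34, adjusted p = 0.569). In both genes the DDC fed samples lay between the normal fed ones. Cyp4f13 was at 80.7 and 75.8 TPM with DDC and at 118 and 71.5 TPM in normal fed samples (-0.23 ± 0.29, adjusted p = 0.567). Cyp4v3, the mouse counterpart of human CYP4V2, the gene of Bietti crystalline dystrophy of the retina, was at 265 and 228 TPM with DDC and at 523 and 240 TPM in normal fed samples (-0.53 ± 0.37, adjusted p = 0.298). Some of these outcomes changed with the normal fed samples used. With normal fed sample 0 left out Cyp4f15 passed as higher (0.73, adjusted p = 0.0365), and with normal fed sample 1 left out Cyp4f14 and Cyp4v3 passed as lower (-0.60 and -1.09, adjusted p = 0.0394 and 0.00826). With median-ratio scaling Cyp4f13, Cyp4f14 and Cyp4v3 passed as lower (-0.90, -0.78 and -1.20, adjusted p = 0.0207, 0.0436 and 0.0195), which gives 6 members lower in place of 3.

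**Figure D2:**
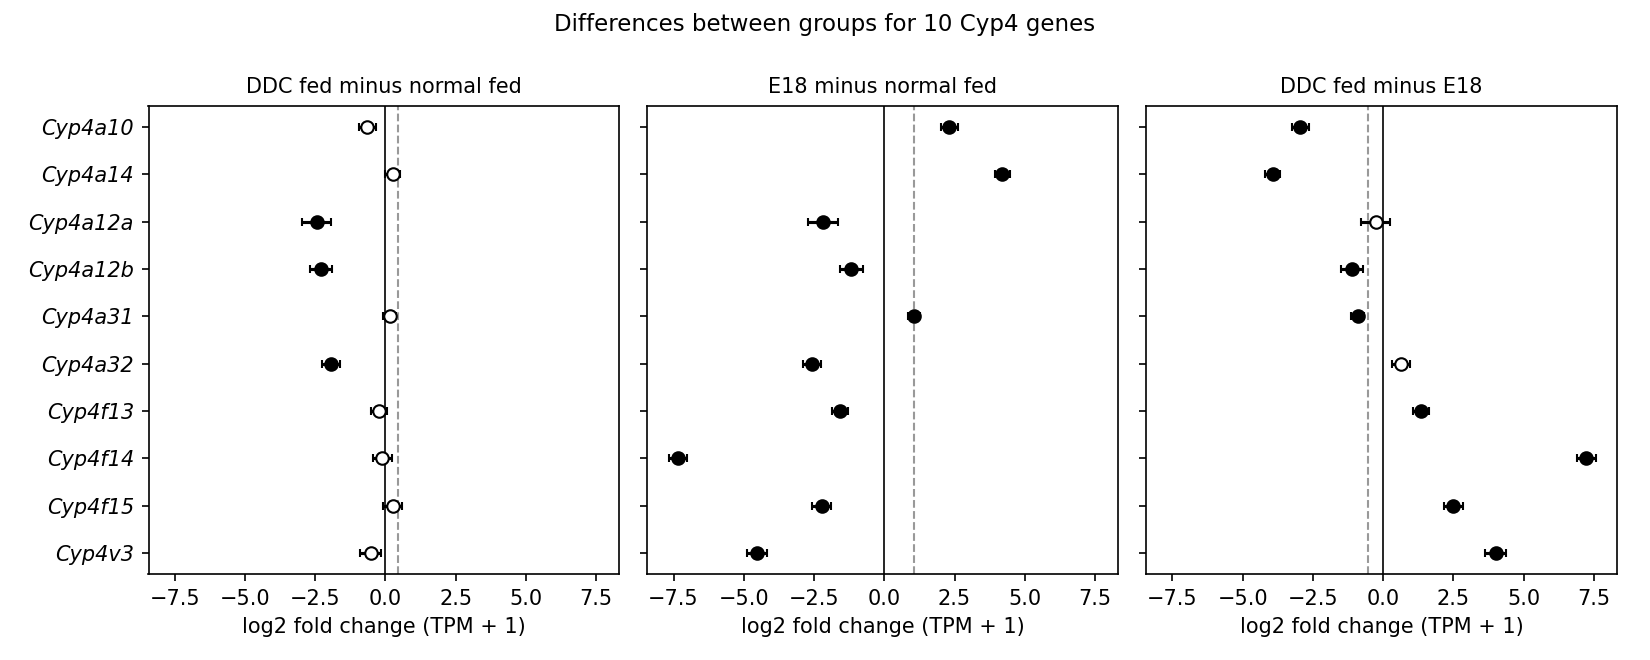
Log2 fold changes of TPM + 1 for the 10 genes in 3 comparisons, with bars of 1 SE from limma (2 samples a group). Filled points passed an adjusted p of 0.05, and the dashed line is the median of all 14307 genes tested. With DDC only Cyp4a12a, Cyp4a12b and Cyp4a32 passed, and at E18 all 10 did.

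E18 samples were set against normal fed adults to ask how the hydroxylases differ before birth. All 10 members passed, 3 as higher and 7 as lower. Of the 3 higher, 2 (Cyp4a14 and Cyp4a31) had passed the filter on low values only through the E18 samples. Of all genes tested 75.7% passed in either direction, 63.0% as higher and 12.7% as lower. No member overlapped between the groups, against 69.7% of genes tested wholly higher and 16.7% wholly lower at E18. The median log2 fold change was -1.88 for the members and 1.06 for all genes tested. Embryonic liver also makes blood. All 11 neutrophil markers rose at E18 and summed to 56498 and 67346 TPM at E18, against 0.374 and 0.431 TPM in normal fed samples. All 9 erythroid markers rose and summed to 12579 and 23699 TPM at E18, against 26.4 and 17.0 TPM in normal fed samples, in which 7 of the neutrophil and 3 of the erythroid markers were listed at 0. Of these markers 9 neutrophil and 7 erythroid ones passed the filter on low values only through the E18 samples. All 17 macrophage markers rose too, with a sum of 4777 and 6180 TPM at E18 and 179 and 151 TPM in normal fed samples. The part of these cells in the results below was not tested, and in bulk samples fewer hepatocytes and less RNA per hepatocyte cannot be told apart. The 14 hepatocyte markers had a median log2 fold change of -1.52 at E18, with 8 lower, 2 higher and 4 not passing. Both that were higher and 2 of the 8 lower were listed at 0 in one of the groups, and of the other 10 markers 6 were lower, 0 higher and 4 not passing, with the same median.

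The inducible Cyp4a genes rose at E18. Cyp4a14 was at 27.6 and 24.2 TPM in E18 samples, against 0.156 and 0.855 TPM in normal fed samples. Both E18 samples were far above every adult sample (4.20 ± 0.26, adjusted p = 1.18e-05), and the ratio of means was 51.3. Cyp4a10 was at 29.8 and 22.4 TPM at E18 and at 3.19 and 5.91 TPM in normal fed samples (2.32 ± 0.30, adjusted p = 0.000411), a ratio of means of 5.74. Again the groups were well apart. Cyp4a31 was at 2.27 and 1.02 TPM at E18 and at 0.120 and 0.361 TPM in normal fed samples (1.06 ± 0.23, adjusted p = 0.0047). This difference equals the median of all genes tested, and it was 0.57 with median-ratio scaling (adjusted p = 0.0711), 0.28 with the exon-length correction (adjusted p = 0.374) and -0.45 with quantile normalization (adjusted p = 0.131).

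The other Cyp4a genes were lower at E18, although they neighbour the inducible ones. Cyp4a32 was at 5.04 and 2.98 TPM at E18 and at 32.3 and 24.5 TPM in normal fed samples (-2.57 ± 0.32, adjusted p = 0.000332). Cyp4a12a was at 64.3 and 40.0 TPM at E18 and at 374 and 145 TPM in normal fed samples (-2.18 ± 0.52, adjusted p = 0.00764). Its E18 levels stood close to those of the DDC fed samples. Cyp4a12b was at 4.63 and 3.13 TPM at E18 and at 15.3 and 6.26 TPM in normal fed samples (-1.17 ± 0.40, adjusted p = 0.0317). Without E18 sample 0 or 1 neither passed (adjusted p = 0.0551 and 0.113 for Cyp4a12a, 0.113 and 0.235 for Cyp4a12b), and Cyp4a12b also did not pass without normal fed sample 0 (-0.59, adjusted p = 0.101) or with no filter on low values (adjusted p = 0.0919). The sum of Cyp4a10, Cyp4a31 and Cyp4a32 was 37.1 and 26.4 TPM at E18 and 35.7 and 30.8 TPM in normal fed samples. The groups overlapped in this sum, although Cyp4a10 was the larger part of it at E18 and Cyp4a32 in normal fed adults. Whether shared reads were split differently between Cyp4a10 and Cyp4a32 in the 2 groups was not tested.

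Cyp4f14 showed the widest difference of the family. It was at 0.509 and 0.289 TPM in E18 samples, against 316 and 160 TPM in normal fed samples. Both E18 samples were near the bottom of the genes tested, with 2.78% and 2.49% of genes below it, while 96.6% and 94.2% were below it in normal fed samples. It fell by 7.34 ± 0.33 on the log2 scale (adjusted p = 3.06e-06), and the mean in normal fed samples was 597 times the mean at E18. Its neighbours on chromosome 17 differed less. Cyp4f15 was at 23.8 and 16.5 TPM at E18 and at 134 and 69.7 TPM in normal fed samples (-2.23 ± 0.34, adjusted p = 0.000884). Cyp4f13 was at 34.9 and 25.8 TPM at E18 and at 118 and 71.5 TPM in normal fed samples (-1.58 ± 0.29, adjusted p = 0.00215), a fold change close to the median of the hepatocyte markers. As a share of the 3 Cyp4f members, Cyp4f14 held 0.860% and 0.679% at E18, against 55.7% and 53.2% in normal fed samples. Cyp4v3 was at 15.9 and 13.1 TPM at E18 and at 523 and 240 TPM in normal fed samples. Its E18 samples lay far below all adult samples (-4.53 ± 0.37, adjusted p = 3.94e-05), a ratio of means of 0.0380. The falls of Cyp4a32, Cyp4f13, Cyp4f14, Cyp4f15 and Cyp4v3 and the rises of Cyp4a10 and Cyp4a14 passed under every alternative run with 2 samples in each group. None of these runs changed how reads were assigned, so they do not bear on the split between Cyp4a10 and Cyp4a32. Cyp4a14 passed the filter on low values only through the E18 samples. These runs on the same values therefore add no support for its rise.

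**Figure D3:**
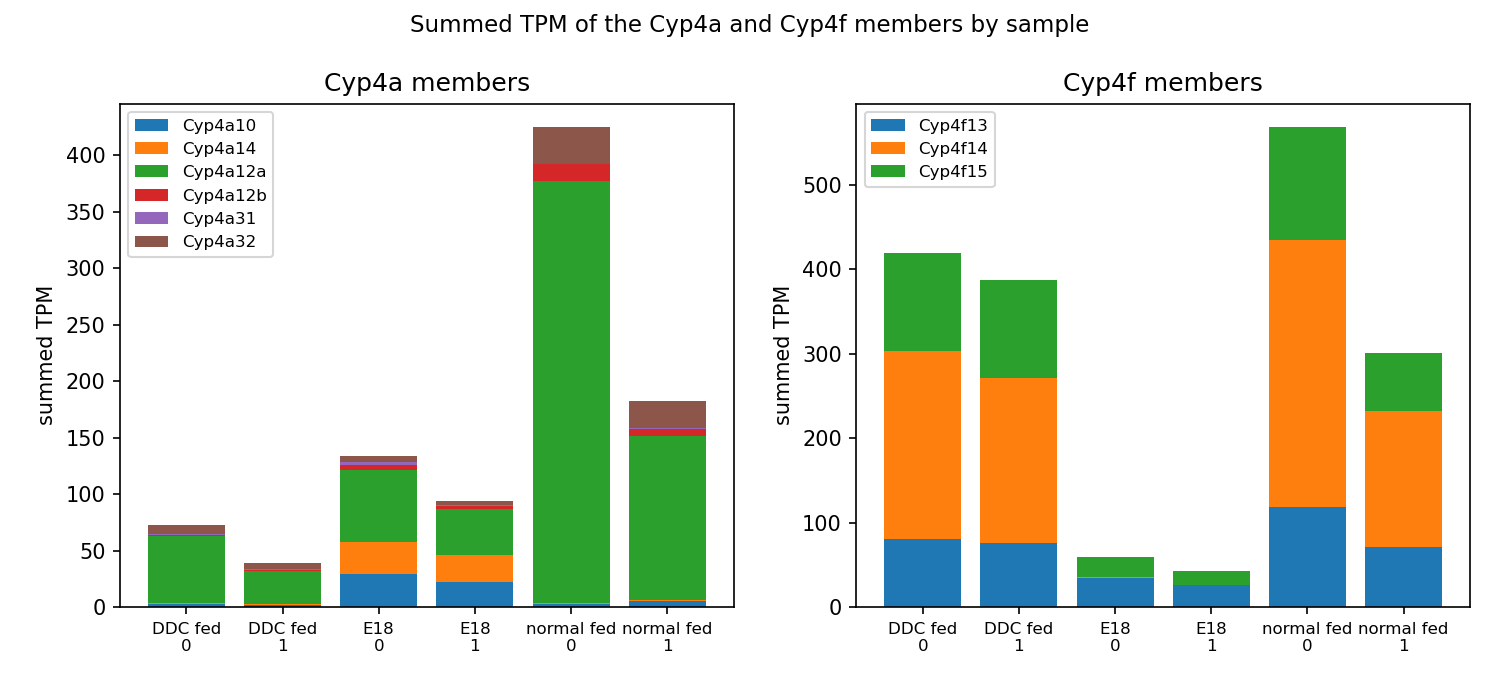
Summed TPM of the 6 Cyp4a members (left) and the 3 Cyp4f members (right) in each sample, stacked by gene. The Cyp4a sum was 73.2 and 38.8 TPM in DDC fed, 134 and 93.8 TPM in E18 and 425 and 183 TPM in normal fed samples, and the Cyp4f sum was 419 and 388, 59.2 and 42.5, and 568 and 301 TPM.

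The family total followed from these genes. All 10 members together summed to 758 and 655 TPM in DDC fed samples, 209 and 149 TPM in E18 samples and 1515 and 724 TPM in normal fed samples. DDC fed and normal fed samples overlapped, and the E18 samples were the lowest. Within the Cyp4a sum, Cyp4a12a held 80.4% and 76.4% with DDC, 48.1% and 42.7% at E18 and 88.0% and 79.3% in normal fed samples. Cyp4a10 and Cyp4a14 held 22.3% and 20.6% in E18 sample 0 and 23.9% and 25.8% in E18 sample 1. Within the Cyp4f sum Cyp4f14 held 52.9% and 50.5% with DDC, close to its share in normal fed samples.

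DDC fed adults were also compared with E18 directly. Of the 10 members 4 were higher with DDC, 4 were lower and 2 did not pass, against 17.7% of all genes tested higher, 47.0% lower and 64.7% in either direction. The samples did not overlap for 5 members higher and 4 lower, against 28.2% and 61.8% of genes tested. Those higher were Cyp4f14 (7.23 ± 0.33, adjusted p = 5.56e-06), Cyp4v3 (4.00 ± 0.37, adjusted p = 0.000113), Cyp4f15 (2.50 ± 0.34, adjusted p = 0.000717) and Cyp4f13 (1.35 ± 0.29, adjusted p = 0.00574). Of these Cyp4f13 did not pass without E18 sample 1 (adjusted p = 0.0793). Those lower were Cyp4a14 (-3.94 ± 0.26, adjusted p = 2.73e-05), Cyp4a10 (-2.96 ± 0.30, adjusted p = 0.000186), Cyp4a12b (-1.12 ± 0.40, adjusted p = 0.0439) and Cyp4a31 (-0.90 ± 0.23, adjusted p = 0.0118). Among these 4, Cyp4a14 and Cyp4a31 had passed the filter on low values only through the E18 samples. With median-ratio scaling Cyp4a12b and Cyp4a31 did not pass (adjusted p = 0.103 and 0.0704), nor with DDC fed sample 0 left out (adjusted p = 0.0761 and 0.0551). Leaving out DDC fed sample 1, E18 sample 0 or E18 sample 1 also ended the call of Cyp4a12b (adjusted p = 0.2, 0.278 and 0.148), as did quantile normalization, a pseudocount of 5, no filter and no variance trend (adjusted p = 0.473, 0.133, 0.116 and 0.0517). Cyp4a12a overlapped between the groups (-0.27 ± 0.52, adjusted p = 0.668). Cyp4a32 was higher in both DDC fed samples and did not pass (0.65 ± 0.32, adjusted p = 0.116); with median-ratio scaling it passed (1.04, adjusted p = 0.0203). This comparison shares its samples with the others, so it is no separate evidence for them.

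The other genes of the family were mostly low in these samples. Of 10 further Cyp4 genes 4 passed the filter on low values. Cyp4f16 was at 16.3 and 15.1 TPM in DDC fed samples and at 7.99 and 7.50 TPM in E18 samples, against 0.368 and 0.366 TPM in normal fed samples. It rose with DDC (3.61 ± 0.18, adjusted p = 4.1e-05) and at E18 (2.68 ± 0.18, adjusted p = 1.48e-05), while the 3 Cyp4f members passed as higher in neither comparison. Cyp4f17 was at 7.65 and 7.0 TPM with DDC and 2.79 and 2.05 TPM at E18, against 10.2 and 5.37 TPM in normal fed samples, and was lower at E18 (-1.32 ± 0.30, adjusted p = 0.00596). Cyp4f18, known in mouse as a leukotriene B4 hydroxylase of neutrophils, was at 0.131 and 0.110 TPM with DDC and at 4.28 and 5.89 TPM at E18, and is listed at 0 in normal fed samples. It passed the filter on low values only through the E18 samples. Its highest values stood in the samples with the highest neutrophil markers, whose part in them was not tested. Cyp4b1 passed the test in none of the 3 comparisons (adjusted p = 0.0807 with DDC and 0.0687 at E18).

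Genes that donate electrons to P450 enzymes, listed together with the partner protein gene Pgrmc1, were mostly lower at E18. Beside this and the later lists, 34.2% of all genes tested rose and 3.07% fell with DDC. At E18 63.0% rose and 12.7% fell. Of 5 genes Cyb5r3, the cytochrome b5 reductase, rose with DDC (0.93 ± 0.25, adjusted p = 0.0277), a call that median-ratio scaling ended, and 4 did not pass. At E18 4 of the 5 fell and 1 did not pass. The P450 reductase Por was at 550 and 431 TPM with DDC and 183 and 132 TPM at E18, against 526 and 169 TPM in normal fed samples, and overlapped between DDC fed and normal fed samples (adjusted p = 0.318 with DDC and 0.136 at E18). Cyb5a, cytochrome b5, was at 788 and 666 TPM at E18 and 2583 and 3557 TPM in normal fed samples (-2.06 ± 0.31, adjusted p = 0.000901). The other falls at E18 were those of Pgrmc1, a heme-binding partner of P450 enzymes (-3.45 ± 0.30), Cyb5r3 (-1.64 ± 0.25) and Cyb5b (-1.55 ± 0.31).

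Genes that carry hydroxylated fatty acids on to dicarboxylic acids and shorten them in peroxisomes were mostly lower at E18. Of 19 such genes 0 rose at E18 (limma, with 0 also with median-ratio scaling), 14 fell and 5 did not pass, with a median of -2.0. Among those that fell were the alcohol dehydrogenase Adh4 (-5.61 ± 0.23), the peroxisomal thiolase Acaa1b (-4.76 ± 0.23), the peroxisome proliferation factor Pex11a (-3.17 ± 0.19) and the isomerase Eci2 (-2.09 ± 0.19). With DDC 1 rose, 3 fell and 15 did not pass, with a median of -0.28. The 1 that rose was Aldh3a2, the fatty aldehyde dehydrogenase, at 224 and 196 TPM with DDC and 76.4 and 54.1 TPM in normal fed samples (1.69 ± 0.25, adjusted p = 0.00255). Those that fell were the acyl-CoA synthetase Acsl1 (-1.68 ± 0.40), Eci2 (-0.92 ± 0.19) and Pex11a (-0.78 ± 0.19). With median-ratio scaling 7 fell with DDC, among the 19, and 18 fell at E18.

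PPARA targets outside the family went both ways at E18. Of 25 tested 4 rose at E18, 13 fell and 8 did not pass, with a median of -0.77. Median-ratio scaling gave 3 higher and 21 lower. The 4 that rose were the pantetheinase Vnn1 (4.20 ± 0.30), the pyruvate dehydrogenase kinase Pdk4 (3.95 ± 0.39), Txnip (2.55 ± 0.28) and the thioesterase Acot2 (1.40 ± 0.24). Vnn1 was at 32.6 and 18.6 TPM at E18 and at 0.265 and 0.534 TPM in normal fed samples. The falls with the smallest adjusted p were those of the retinol saturase Retsat (-3.47 ± 0.22) and the fatty acid binding protein Fabp1 (-3.90 ± 0.39). With DDC there were 7 rises, 4 falls and 14 that missed the threshold, and median-ratio scaling gave 5 higher and 10 lower. Txnip (2.57 ± 0.28) and Pdk4 (3.18 ± 0.39) rose and Retsat (-2.16 ± 0.22) and Fabp1 (-3.07 ± 0.39) fell. Ppara itself was at 48.5 and 30.3 TPM with DDC and 68.5 and 43.7 TPM at E18, against 57.1 and 25.4 TPM in normal fed samples. All 3 groups overlapped (0.01 ± 0.44 with DDC and 0.51 ± 0.44 at E18).

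**Figure D4:**
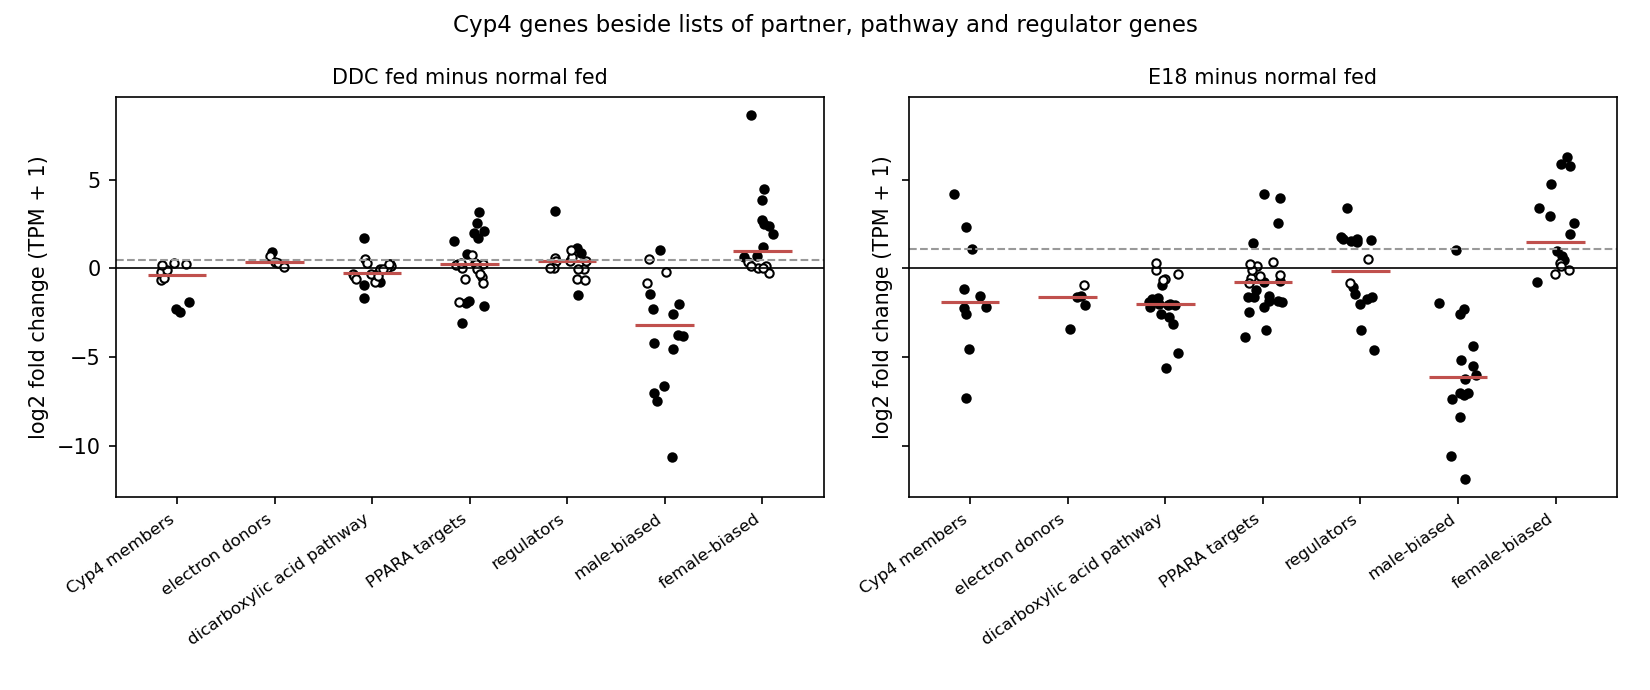
Log2 fold changes of TPM + 1 for each gene tested in 7 lists, DDC fed minus normal fed (left) and E18 minus normal fed (right). Filled points passed an adjusted p of 0.05, red bars are list medians and the dashed line is the median of all genes tested. The male-biased list had medians of -3.19 with DDC and -6.14 at E18. Without Mup20, listed at 0 in DDC fed samples, its median with DDC was -2.60.

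Genes with a known bias to male liver were mostly lower both with DDC and at E18, as Cyp4a12a and Cyp4a12b were. The sex of the mice is not given. For all of these genes, a difference in sex between the groups therefore cannot be told apart from diet or age. Of 16 tested 12 fell with DDC, 1 rose and 3 did not pass, with a median of -3.19. Without Mup20, listed at 0 in both DDC fed samples, 11 of 15 fell with DDC, with a median of -2.60. At E18 15 of the 16 fell and 1 rose, with a median of -6.14. Of all genes tested 3.07% fell with DDC and 12.7% at E18. The steroid dehydrogenase Hsd3b5 was at 0.293 and 0.184 TPM with DDC and 0.971 and 0.381 TPM at E18, against 227 and 208 TPM in normal fed samples. The pheromone-binding Mup20, one of a family of near copies, was at 1272 and 1980 TPM in normal fed samples and has a 0 in both DDC fed samples, which may be a failed estimate. The other large falls with DDC were those of Mup21 (-7.06 ± 0.18) and the fatty acid elongase Elovl3 (-6.66 ± 0.24). The 1 that rose in both was Ihh, which did not pass with median-ratio scaling. Of 16 genes with a bias to female liver 10 rose and 0 fell with DDC (limma), and 11 rose and 1 fell at E18. Of all genes tested 34.2% rose with DDC and 63.0% at E18, so rises at E18 are not particular to this list. With median-ratio scaling 7 of the 16 rose with DDC, and 8 rose and 2 fell at E18. Cyp2a4, which has a near copy in Cyp2a5, led the rises with DDC at 1290 and 767 TPM, against 1.65 and 1.31 TPM in normal fed samples. At E18 Hao2, Prom1, Cyp2c40 and Sult3a1 led, with log2 fold changes of 5.89, 4.76, 6.29 and 5.75. Prom1 is also counted among the cholangiocyte markers below, so those 2 lists are not separate. In part the filter on low values fixed these counts, since 3 of the 10 rises with DDC and 4 of the 11 at E18, Hao2 and Sult3a1 among them, were of genes that passed it only through that group. The same holds for 4 male-biased genes, Mup20, Hsd3b5, Elovl3 and Cspg5, which passed it only through the normal fed samples. The growth hormone receptor Ghr was at 233 and 238 TPM with DDC and 78.7 and 44.7 TPM at E18, against 722 and 641 TPM in normal fed samples, and fell in both (-1.53 ± 0.29 and -3.50 ± 0.29, adjusted p = 0.00764 and 4.76e-05). Of the 16 regulators listed 3 rose and 1 fell with DDC, and 7 rose and 7 fell at E18. Median-ratio scaling gave 1 higher and 2 lower with DDC, and 3 higher and 8 lower at E18. Those that rose with DDC were Pparg (3.23 ± 0.30), Stat5a (1.11 ± 0.20) and Stat5b (0.87 ± 0.25). At E18 the calls with the smallest adjusted p beside Ghr were a rise of Cux2, a factor with a bias to female liver (3.42 ± 0.23) that passed the filter only at E18, a fall of Nr1i3, the xenobiotic receptor CAR (-4.59 ± 0.33), and a rise of Stat5a (1.66 ± 0.20).

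The profiles of single members were compared with 9686 other genes by the distance between centred log2(TPM + 1) values over the 6 samples. Among the nearest to Cyp4f14 were Cyp2d9 at a distance of 0.487, the tyrosine aminotransferase Tat at 1.0 and Ugt2a3 at 1.04. Cyp2d9 was at 1178 and 929 TPM with DDC and 10.1 and 6.74 TPM at E18, against 1678 and 901 TPM in normal fed samples. Nearest to Cyp4a12a were Selenbp2 at 0.787, Lifr at 0.955, Eif4ebp3 at 1.21 and Cmah at 1.27, and nearest to Cyp4a14 were Cd226 at 0.557, Pde5a at 0.567, Pimreg at 0.580 and Palm at 0.591. Between members the smallest distances were those of Cyp4a12a with Cyp4a12b (1.16), Cyp4f13 with Cyp4f15 (1.16) and Cyp4a12a with Cyp4a32 (1.17), and Cyp4f14 was nearest to Cyp4v3 (3.52). As near copies Cyp4a12a and Cyp4a12b are not separate cases, and the part of shared reads in their distance was not tested. The largest distance was that of Cyp4a14 with Cyp4f14 (13.2).

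Markers of other liver cells moved with DDC beside these results. Of 17 macrophage markers 17 rose, with a sum of 1427 and 1763 TPM in DDC fed and 179 and 151 TPM in normal fed samples. Of 11 stellate cell and fibroblast markers 10 rose, and their sum was 401 and 359 TPM with DDC and 29.3 and 13.4 TPM in normal fed samples, and all 10 endothelial markers rose, to a sum of 229 and 243 TPM with DDC and 64.2 and 20.6 TPM in normal fed samples. Of 9 cholangiocyte markers tested 4 rose, and the sum of all 11 was 106 and 123 TPM with DDC and 14.2 and 12.2 TPM in normal fed samples. The 14 hepatocyte markers had a median log2 fold change of -0.07 with DDC, and -0.11 over the 11 not listed at 0 in either group, none of which passed, while Cyp4a12a, Cyp4a12b and Cyp4a32 fell by 2.45, 2.29 and 1.92. The part of other cells in these falls was not tested.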

How the data were processed

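RNA of mouse hepatocytes was prepared as poly(A)-selected, stranded libraries, per the labels. The authors deposited TPM values for 48432 genes and 6 samples, each column summing to 1000000. The submitters' processing notes list the build GRCm38 and, without roles, Cuffdiff 2.2.1, DESeq2, HTSeq, STAR 2.4.2a, Trimmomatic, Picard 1.119 and bcl2fastq 2.17.1.14. Which of them made the table is not stated. Without counts the counting error is unknown. Columns are numbered 0 and 1 and titles 1 and 2, and each column was matched only to its group.

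Gene identifiers were matched to GENCODE M21, which held 48053. Values of log2(TPM + 1) were fitted with limma 3.58.1 in R 4.3.3, with 1 mean per group, 3 residual degrees of freedom and a variance trend, and p-values were two-sided and adjusted by Benjamini and Hochberg over 14307 genes. Adding 1 TPM understates changes of low genes. Coding identity came from global alignment (Biopython 1.88). The members and lists were chosen with earlier results of these data known. Named genes are the members, the other Cyp4 genes tested, from each list the genes passing where they number 5 or fewer, otherwise up to 4 by lowest adjusted p, and the 4 nearest profiles, of which 1 for Cyp4f14 is not reported here. Por, Ppara, Ihh, Gm45753, Cspg5, Hpx, Fga, Fgb, Serpina1a, Cyp4f37 and, at E18, Txnip and Acot2 were named after their values were seen.

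Alternatives were median-ratio scaling, quantile normalization, pseudocounts of 0.1 and 5, filters at a mean of 5 TPM or none, the column number as a block, only the compared groups, no variance trend and each sample left out. A correction for exon length was added after the data were seen.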

Additional observations from a re-analysis of the deposited data

How the results depend on the processing

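The 3 members lower with DDC became 6 with median-ratio scaling and with the exon-length correction, and from 2 to 5 with a sample left out, while members higher numbered from 0 to 1. Members lower with DDC against E18 numbered 4, but 2 with median-ratio scaling, quantile normalization or the exon-length correction, and from 2 to 4 with a sample left out. The other member counts stayed within 1.5 times. For DDC fed minus normal fed, uncalled fold changes turned to -0.013 (median-ratio), -0.52 (quantile) and -0.22 (exon length) for Cyp4a14, to -0.019, -0.49 and -0.32 for Cyp4a31, and to -0.40, -0.072 and -0.18 for Cyp4f15. With a sample left out they ran from -0.079 to 0.60 for Cyp4a14, -0.59 to 0.13 for Cyp4f13, -0.60 to 0.38 for Cyp4f14, -0.20 to 0.73 for Cyp4f15 and -1.09 to 0.035 for Cyp4v3. Cyp4a31 at E18 turned to -0.45 with quantile normalization. Cyp4a12a with DDC against E18 turned to 0.25, 0.0096 and 0.021 with those 3 settings, and ran from -0.75 to 0.21 with a sample left out. The cause was not tested. Labels give no pairing by column number, so the numbers were not taken as pairs. Same-numbered deviations correlated at 0.233 (DDC fed and normal fed), 0.139 (E18 and normal fed) and 0.0605 (DDC fed and E18) over 14307 genes. Whether samples of the same number share an effect was not tested. With the replicate block the fall of Cyp4a12a with DDC had an SE of 0.24 and an adjusted p of 0.000224, against 0.52 and 0.0114 without it, and Cyp4a32 passed as higher with DDC than at E18 (0.65, adjusted p = 0.0377), which gave 5 members in place of 4. Of the members' fold changes under other settings, 414 kept direction and call, 28 lost the call, 15 gained one and 20 changed sign. With 2 samples a group, normal fed sample 0 or 1 alone decides calls, and the table gives no depth.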
